A study of Homo sapiens with 24 samples.

Results

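The shift of RNA between the soluble and the insoluble cytoplasmic fraction of U2OS cells under NaAsO2 was measured in 12 of the 24 libraries of the series. The 12 libraries were chosen by their labels alone and come from 3 Ctrl lysates, given 0.12% DMSO for 2 h, and 3 lysates of cells given 500 µM NaAsO2 for 60 min, each split into both fractions. The remaining 12 libraries, from cells given 6 µM RK-33, an inhibitor of the RNA helicase DDX3, for 1 h before, with or without NaAsO2 (Combo), entered the same fit and serve as a comparison at the end. U2OS is a line of human osteosarcoma cells, and no genotype differs between the groups. The study states that the experiment was repeated 3 times for all conditions. The labels do not say that replicates came from separate cultures, so p-values measure the spread between these samples, which may be technical.

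The arsenite shift of a gene was the change with NaAsO2 in the log2 ratio of its insoluble to its soluble level. It is positive where an RNA sedimented more with NaAsO2 and negative where it sedimented less. A change of the gene's level that is equal in both fractions leaves it at 0. Values in CPM, the counts scaled to a fixed library total, are relative to all other RNA of a library, so the shift places a gene relative to the other genes, and the total RNA of each fraction was not known from the counts.

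NaAsO2 causes oxidative stress, stops translation initiation through phosphorylation of eIF2α, and makes mRNAs that have left polysomes gather with RNA-binding proteins such as G3BP1 in stress granules (SGs). SGs and P-bodies, the sites of decapping and silencing factors, sediment after nuclei have been removed, together with anything else that is heavy, such as large polysomes and RNA bound to membranes or the cytoskeleton. Long mRNAs with poorly translated coding sequences are known to be favoured in SGs, while short mRNAs of ribosomal proteins and other abundant cytosolic proteins are known to be poor SG clients.

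Exon counts ranged from 8627294 to 14317489 per library (median 10436758). Replicate 3 of the NaAsO2 insoluble fraction stood apart. RN7SL1, the RNA of the signal recognition particle, held 5.79% of its exon counts (Wilson 95% interval 5.776% to 5.804%, counting error only), against 0.426% to 0.868% in the other 5 insoluble and 7.51% to 13.1% in the 6 soluble libraries. The mean correlation with its own group was 0.933, against 0.960 and 0.965 for the other NaAsO2 insoluble libraries and 0.991 to 0.992 for the 9 libraries of the other groups. The values of the other NaAsO2 insoluble libraries include their correlation with replicate 3. VIM, SPARC, RUNX2 and LOX, expressed in mesenchymal and bone-forming cells, had medians of 845, 1780.2, 63.0 and 91.1 CPM, while COL1A2 and TWIST1 had medians of 0.199 and 0 CPM. Of the markers of other cell types, PTPRC, ALB and GFAP stayed at or below 1.62 CPM, and EPCAM and CDH1 reached 7.91 and 7.10 CPM.

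In all, 17666 genes reached a mean of 1 CPM, and 1689 of them (9.56%) passed the thresholds of an adjusted p under 0.05 and an absolute shift of at least 1 on the log2 scale (edgeR quasi-likelihood test, Benjamini-Hochberg). They are called genes below. Of these, 807 (4.57%) shifted towards the insoluble and 882 (4.99%) towards the soluble fraction. The median shift of all genes was -0.02, with quartiles of -0.52 and 0.47 and extremes of -4.03 and 3.40, and the median standard error was 0.31. Without the library that stood apart, 771 genes (4.36%) were called towards the insoluble and 577 (3.27%) towards the soluble fraction. 504 of the 807 and 442 of the 882 were called again in the same direction, and 0 changed sign. The share of calls that point to the insoluble fraction was 47.8% with TMM factors, 53.1% with the RN7SL copies left out of the scaling, 55.8% with RLE factors and 68.7% with library size alone, which moved the median of all genes to 0.08.

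In single lysates the ratios of most called genes did not overlap between treatments. Fractions with the same replicate number were taken as 1 lysate, which the labels do not state. The insoluble-to-soluble ratios of the 3 NaAsO2 lysates all lay above those of the 3 Ctrl lysates for 788 of the 807 genes and all below for 865 of the 882. Over all genes tested this held for 17.1% and 21.3%. The genes were called on these same libraries, so the separation describes the calls and is no further test of them. With all libraries, most of the movement that could be placed in 1 fraction lay in the insoluble one. NaAsO2 raised 991 genes (5.61%) and lowered 1479 (8.37%) in the insoluble fraction, but raised only 87 (0.492%) and lowered 209 (1.18%) in the soluble one. The library that stood apart is a term of the insoluble comparison alone, and counts without it are not given here, so its part in this imbalance was not tested. Among the 807 genes, 363 rose in the insoluble fraction alone, 41 fell in the soluble fraction alone, and 396 passed in neither. Among the 882 genes, 367 fell in the insoluble fraction alone, 15 rose in the soluble fraction alone, and 495 passed in neither. The mean level over both fractions was higher with NaAsO2 for 165 genes (0.934%) and lower for 472 (2.67%), which included 34 and 4 of the 807 and 2 and 51 of the 882.

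Few genes passed the thresholds for opposite fractions in Ctrl and NaAsO2 lysates. The insoluble fraction of Ctrl lysates held more of 2083 genes (11.8%) and less of 1890 (10.7%), and with NaAsO2 these were 2587 (14.6%) and 2818 (16%). Of the 807 genes, the Ctrl pellets held less of 47 and more of 50, and the NaAsO2 pellets more of 559. Of the 882 genes, the Ctrl pellets held more of 191 and less of 137, and the NaAsO2 pellets less of 477. In each direction 3 genes passed on opposite sides in both treatments. Genes that changed order between the fractions without passing on both sides, such as NORAD, are not in these counts. These counts share the libraries that define the shift and are a description of it.

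NORAD, a cytoplasmic long noncoding RNA known to bind Pumilio proteins, shared the smallest adjusted p of all genes with ZCCHC14. Its 3 Ctrl lysates held 298, 279 and 276 CPM in the soluble and 222, 215 and 219 CPM in the insoluble fraction. With NaAsO2 they held 178, 188 and 169.9 CPM in the soluble and 577, 589 and 724 CPM in the insoluble fraction. Every Ctrl pellet thus held less NORAD than its soluble fraction, and every NaAsO2 pellet more. Its shift was 2.19 ± 0.15 (SE, n = 3 lysates a treatment, adjusted p = 7.52e-09, edgeR) and 2.16 without the library that stood apart. The NORAD transcript is 5401 bases long and holds 15 copies of TGTANATA, the motif of Pumilio proteins, which ranks it 4 among 2806 lncRNAs tested, 388 of which hold at least 1 copy. The first, a middle and the last of its copies are shown with 8 bases on each side and the motif in capitals, since they are the repeated feature for which this RNA is known (GRCh38, minus strand, chr20:36050185-36050208, chr20:36048480-36048503 and chr20:36046347-36046370).
NORAD copy 1: aaggcctgTGTATATAatatgaaa
NORAD copy 8: taacacttTGTAAATAgcttttaa
NORAD copy 15: agcctattTGTAAATAcctttgtt

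The other genes with the smallest adjusted p towards the insoluble fraction were ZCCHC14, LRRC58, POMK, IRS1, SPRED1, ZFP36L1, CMTM4, C14orf132 and DACT1. The mRNA of LRRC58, a protein with leucine-rich repeats, had 159.6, 152 and 143 CPM in the soluble and 148, 151 and 172 CPM in the insoluble Ctrl libraries. With NaAsO2 it had 89.5, 103 and 88.8 CPM in the soluble and 416, 384 and 437 CPM in the insoluble libraries. The Ctrl fractions overlapped and the NaAsO2 fractions did not (shift 2.09 ± 0.16, adjusted p = 1.93e-08, edgeR). ZCCHC14, a zinc finger protein that binds RNA, had insoluble-to-soluble ratios of 1.37, 1.32 and 1.57 in Ctrl and 4.83, 4.86 and 4.85 in NaAsO2 lysates, the 3 treated lysates lying close together. POMK, a kinase that modifies the sugar chain of dystroglycan, went from 1.18, 1.15 and 1.37 to 3.98, 4.45 and 4.91, and IRS1, the adaptor of the insulin receptor, from 1.42, 1.46 and 1.5 to 3.94, 4.6 and 5.04. SPRED1, an inhibitor of Ras signalling, went from 0.815, 0.92 and 0.968 to 3.00, 2.61 and 4.3. By size of shift, IER3, CHST2, a sulfotransferase, and TP53INP1, a p53 target, joined NORAD and LRRC58, with CHST2 at 2.14 (1.17 without the library that stood apart) and TP53INP1 at 2.13 (2.5).

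These 10 genes were chosen by the adjusted p of the shift, which favours a rise in the pellet with a fall in the soluble fraction. All 10 genes lay higher in each NaAsO2 insoluble library than in each Ctrl insoluble library, and 9 of the 10 lay lower in each NaAsO2 soluble library than in each Ctrl soluble library, ZFP36L1 being the exception. Of the 807 genes, 0 passed the thresholds both for a rise in the insoluble and for a fall in the soluble fraction. The 3′UTRs of the 9 coding genes varied widely in length, with 557 bases in POMK, 1187 in DACT1, 1871 in ZFP36L1, 4032 in ZCCHC14, 4960 in IRS1, 5585 in SPRED1, 6691 in LRRC58, 7236 in C14orf132 and 7308 in CMTM4. TGTANATA occurred 5 times in the 3′UTR of LRRC58, 5 times in that of SPRED1, 8 times in that of IRS1 and 1 time in that of ZCCHC14, but 0 times in those of POMK, ZFP36L1, CMTM4, C14orf132 and DACT1, and 30.05% of the 13439 coding genes tested held it in their 3′UTR. The first copies of LRRC58 (chr3:120329238-120329261, minus strand) and SPRED1 (chr15:38352904-38352927, plus strand) are given for comparison with those of NORAD, with the same marking.
LRRC58 copy 1: aaatgtttTGTAAATAagtgactt
SPRED1 copy 1: aagtatctTGTACATAtaaattta

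**Figure D1:**
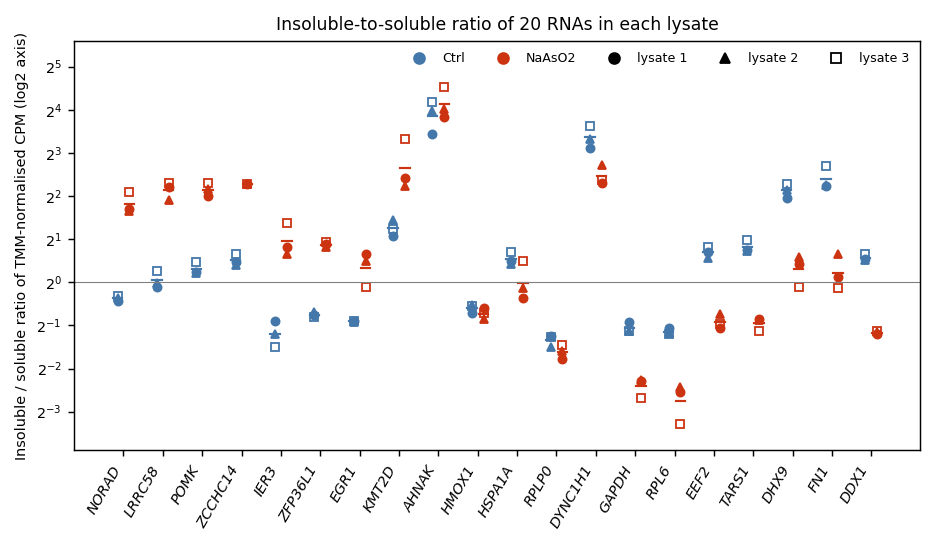
Insoluble-to-soluble ratio of TMM-normalised CPM (log2 axis) of 20 RNAs in each Ctrl (blue) and NaAsO2 (red) lysate, with symbols for the lysate and a bar for the geometric mean of 3. NORAD rises from between 0.746 and 0.796 to between 3.13 and 4.26, DDX1 falls from between 1.44 and 1.57 to between 0.432 and 0.458, and AHNAK and HMOX1 overlap between treatments.

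Immediate early genes, which are transcribed within minutes of a stimulus and whose mRNAs are short-lived, shifted to the insoluble fraction more often than any other list. 19 of 45 tested members were called higher and 0 lower, against 4.57% and 4.99% of all genes, and the median shift was 0.95 against -0.02. Of these 19, 13 were called again without the library that stood apart, where 15 members were called in all and the median was 0.76. The NaAsO2 ratios lay above all Ctrl ratios for 32 of the 45 and below for 0, against 17.1% and 21.3% of all genes. The mean level of 21 members was also higher with NaAsO2.

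IER3, which regulates apoptosis and NF-kB signalling, had the largest shift of the list. Its level was 64.1, 69.5 and 70.5 CPM in the soluble and 34.3, 29.7 and 24.6 CPM in the insoluble Ctrl libraries, and 92.6, 88.4 and 97.6 CPM in the soluble and 164, 139.9 and 252 CPM in the insoluble NaAsO2 libraries. It rose in the pellet (log2 fold change 2.65), while the 0.45 in the soluble fraction did not pass (shift 2.2 ± 0.25, adjusted p = 3.32e-06, edgeR; 1.99 without the library that stood apart). Antisense genes cover 38.9% of its exon bases and the counting used no strand, so their reads cannot be told apart. ZFP36L1, which binds AU-rich elements and promotes mRNA decay, had ratios of 0.59, 0.62 and 0.568 in Ctrl and 1.84, 1.75 and 1.91 in NaAsO2 lysates, and its mean level was higher by 1.15 on the log2 scale. EGR1, a transcription factor, had ratios of 0.539, 0.531 and 0.54 and 1.56, 1.4 and 0.926, with a level higher by 2.31. ATTTA, the core of AU-rich elements, occurs 6 times in the 3′UTR of IER3 and 8 times in that of ZFP36L1, and in 73.6% of the 3′UTRs of all coding genes tested. A stretch of each is shown because it holds more than 1 copy close together, with the copies in capitals (IER3, chr6:30743650-30743673 and ZFP36L1, chr14:68787721-68787744, both minus strand).
IER3: taatATTTAtatgtATTTAtgtac
ZFP36L1: gtgaATTTATTTAaaagaaaaaaa

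Not all immediate early mRNAs with a higher level shifted. FOS, the most induced of those named, had a level higher by 2.43 and ratios of 0.994, 0.802 and 0.986 in Ctrl and 1.07, 1.03 and 1.24 in NaAsO2 lysates, which did not overlap, with a shift of 0.28 ± 0.19 that did not pass (adjusted p = 0.31, edgeR). ATF3 had a level higher by 1.71 and a shift of 0.33 (adjusted p = 0.12, edgeR), and JUN a level higher by 1.3 and a shift of 0.60 (adjusted p = 0.18, edgeR). In JUN the library that stood apart held 1025 CPM and the other NaAsO2 insoluble libraries 417 and 487 CPM. IER5 (shift 1.69, 0.97 without that library) and DUSP8 (1.51 and 1.01) were likewise highest there. Targets of ATF4 and NRF2 did not move as a list, with 2 of 28 called higher and 2 lower and a median of 0.13 (0 higher and 1 lower without that library, and 1 lower with the lysate as a block). With all libraries these calls were 7.14% in each direction, against 4.57% and 4.99% of all genes. ATF4 itself and CEBPB were called higher (shifts of 1.15 and 1.23) but not without that library (0.71 and 0.68). HMOX1, the heme oxygenase that NRF2 and BACH1 control, had a level higher by 1.84 and a shift of -0.13 ± 0.20 that did not pass (adjusted p = 0.69, edgeR).

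Some mRNAs of nuclear regulators were also called towards the insoluble fraction. Of 48 chromatin regulators with long mRNAs, 6 were called higher and 1 lower (median 0.32), and 10 and 0 without the library that stood apart (median 0.63). Over all genes 4.57% were called higher and 4.99% lower, and 4.36% and 3.27% without that library. KMT2D, a histone methyltransferase, had ratios of 2.1, 2.7 and 2.36 in Ctrl and 5.3, 4.66 and 9.97 in NaAsO2 lysates, TET3, a methylcytosine dioxygenase, 1.46, 1.59 and 1.76 and 3.96, 4.16 and 4.39, and NSD1, a histone methyltransferase, 2.46, 2.91 and 3.44 and 7.58, 7.4 and 7.59. MED12, a subunit of the Mediator kinase module, went the other way (shift -1.05, -0.89 and not called without that library). Of 50 KRAB zinc finger genes, which silence transposable elements and lie in clusters on chromosome 19, 6 were called higher and 0 lower (median 0.44). With the lysate as a block 3 were called higher. Without that library 12 were called higher, 3 of them among the 6 (median 0.66), and the median log2 ratio was 0.70 and 0.64 in NaAsO2 lysates 1 and 2 and 0.03 in lysate 3, against -0.05 to 0.02 in Ctrl. ZNF699 went from 0.998, 1.03 and 1.43 to 3.24, 3.2 and 3.75.

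Transcripts of P-body proteins followed no common direction, while those of SG proteins lay mostly below 0 with few calls. 1 of 31 transcripts of P-body and decay proteins was called higher (TNRC6C, a scaffold of miRNA silencing, 1.04) and 1 lower (CNOT10, a subunit of the CCR4-NOT deadenylase, -1.58), with a median of 0.09 (4 higher and 1 lower without the library that stood apart, median 0.30). With all libraries the P-body calls were 3.23% in each direction, against 4.57% and 4.99% of all genes. 3 of 35 transcripts of SG proteins were called lower (8.57%, against 4.99% of all genes) and 0 higher. These 35 transcripts had 28 negative shifts and a median of -0.34 (-0.23 without the library that stood apart). Their NaAsO2 ratios lay below all Ctrl ratios for 19 (54.3%) and above for 2 (5.71%), against 21.3% and 17.1% of all genes. The mRNA of G3BP1, the SG scaffold, had ratios of 1.1, 1.18 and 1.26 in Ctrl and 1.05, 1.09 and 0.74 in NaAsO2 lysates, which did not overlap, but the shift did not pass (-0.31 ± 0.15, adjusted p = 0.15, edgeR; 0.000873 with GC correction). That of DDX3X, the target of RK-33, had a shift of -0.34 ± 0.29 (adjusted p = 0.42, edgeR; 0.06 without that library). The 3 called were the helicase mRNAs DHX9 (-1.82) and DDX1 (-1.75) and that of YBX1 (-1.09, not called without that library).

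The genes with the smallest adjusted p towards the soluble fraction included DDX1, an RNA helicase of tRNA ligation, COPG1, a subunit of the COPI vesicle coat, STIP1, a cochaperone that links HSP70 and HSP90, TARS1, the threonyl-tRNA synthetase, UFD1, a cofactor of the p97 segregase, DHX9, TKT, the transketolase, RRM1, the large subunit of ribonucleotide reductase, and HEXA, a lysosomal hexosaminidase. DDX1 held 137, 154 and 151 CPM in the soluble and 199, 223 and 238 CPM in the insoluble Ctrl libraries, and 250.1, 233 and 245 CPM in the soluble and 108, 104 and 112 CPM in the insoluble NaAsO2 libraries. Its ratios were 1.46, 1.44 and 1.57 in Ctrl and 0.432, 0.446 and 0.458 in NaAsO2 lysates. The insoluble level was the higher in each Ctrl lysate and the lower in each NaAsO2 lysate (shift -1.75 ± 0.15, adjusted p = 1.22e-07, edgeR; -1.69 without the library that stood apart). Large shifts in this direction were those of STT3A (-2.18), FN1 (-2.14), A2M (-2.04) and CSE1L, a nuclear export factor of importins (-2.03).

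7 of these 9 mRNAs were higher in the pellet in every Ctrl lysate, TKT and UFD1 being the exceptions. In Ctrl lysates the ratios of COPG1 were 1.89, 1.64 and 1.89 and those of RRM1 2.59, 2.54 and 3.17. With NaAsO2 they were 0.523, 0.555 and 0.535 for COPG1 and 0.908, 0.956 and 0.616 for RRM1. Those of DHX9 went from 3.88, 4.42 and 4.87 to 1.35, 1.5 and 0.928, and UFD1, which was lower in the pellet already in Ctrl, went from 0.69, 0.688 and 0.686 to 0.269, 0.252 and 0.214. HEXA was the 1 gene of the 9 whose soluble libraries did not lie above those of Ctrl without overlap (log2 fold change of -0.07, against -1.31 in the insoluble fraction). The choice of these 9 by the adjusted p of the shift favours such separation in both fractions. The 3′UTRs of DDX1, COPG1, STIP1, TARS1, DHX9 and RRM1 were 195, 349, 417, 378, 548 and 549 bases long, and those of UFD1, TKT and HEXA 759, 1044 and 3153 bases.

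Aminoacyl-tRNA synthetases, which charge tRNAs with amino acids, were the list with the lowest median. 10 of 20 cytosolic members were called lower and 0 higher, with a median of -1.01, and without the library that stood apart 11 were called lower, 9 of them the same genes, with a median of -1.08. The NaAsO2 ratios lay below all Ctrl ratios for 19 of the 20. Over all genes tested this held for 21.3%, and 4.99% were called lower. In Ctrl lysates the list lay in the pellet, with median log2 ratios of 0.56, 0.51 and 0.74, and with NaAsO2 these were -0.54, -0.44 and -0.20. TARS1 had 171, 192 and 186 CPM in the soluble and 288, 318 and 366 CPM in the insoluble Ctrl libraries, and 345, 311 and 368 and 192, 170.4 and 167 CPM with NaAsO2. The order of its fractions was reversed in every lysate (shift -1.78 ± 0.16, adjusted p = 1.59e-07, edgeR). RARS1 and GARS1, the arginyl and glycyl enzymes, had shifts of -1.5 and -1.42.

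Ribosomal protein mRNAs lay in the soluble fraction already in Ctrl lysates, with median log2 ratios of -1.25, -1.29 and -1.30 over 80 genes, and more so with NaAsO2, with -2.27, -2.15 and -2.02. 28 of the 80 were called lower and 0 higher (median shift -0.85), and 20 without the library that stood apart (median -0.88), 17 of them the same genes. Of all genes, 4.99% were called lower with all libraries and 3.27% without that library. RPL6, a protein of the large subunit, had 369.8, 464 and 407 CPM in the soluble and 177, 205 and 176 CPM in the insoluble Ctrl libraries, and 556, 526 and 607 and 94.8, 97.3 and 61.5 CPM with NaAsO2. It was higher in each soluble and lower in each insoluble NaAsO2 library than in any Ctrl library of that fraction (shift -1.58 ± 0.21, adjusted p = 1.67e-05, edgeR). RPLP0, a protein of the ribosomal stalk, had ratios of 0.419, 0.355 and 0.417 in Ctrl and 0.293, 0.33 and 0.365 in NaAsO2 lysates and a shift of -0.25 ± 0.22 that did not pass (adjusted p = 0.44, edgeR). Ribosomal proteins have many processed pseudogenes, and reads shared with them may have been left out of these counts.

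Translation factors were called in the same direction, with 10 of 46 called lower (21.7%, against 4.99% of all genes) and 0 higher (median -0.60). EEF2, the factor of ribosomal translocation, had 863, 1077 and 989 CPM in the soluble and 1402, 1602 and 1750.4 CPM in the insoluble Ctrl libraries, and 1903, 1783 and 2096 and 905, 1064 and 1067 CPM with NaAsO2. Its fractions changed order in each lysate (shift -1.63 ± 0.19, adjusted p = 5.77e-06, edgeR). EEF1A1, which brings tRNAs to the ribosome, and TPT1, a small protein linked to growth control, had shifts of -0.93 and -0.99, below the limit of 1 (adjusted p = 0.0058 and 5.60e-04, edgeR). EEF1A1 was called without the library that stood apart (-1.04) and TPT1 with the lysate as a block (-1.005).

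Many of these mRNAs begin with a 5′ terminal oligopyrimidine (TOP) tract, through which mTOR signalling is known to control their translation. Starts of EEF2 (chr19:3985444-3985473), TPT1 (chr13:45341164-45341193), EEF1A1 (chr6:73521013-73521042) and RPLP0 (chr12:120201092-120201121), all on the minus strand of GRCh38, are shown from 10 bases before the RefSeq start, with the pyrimidine run in capitals, because these 4 mRNAs share the tract and differ in their shift.
EEF2: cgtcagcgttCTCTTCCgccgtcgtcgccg
TPT1: ctgagtcggcCTTTTCCgcccgctcccccc
EEF1A1: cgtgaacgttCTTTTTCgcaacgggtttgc
RPLP0: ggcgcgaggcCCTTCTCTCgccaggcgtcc

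A start with C followed by at least 4 pyrimidines, on the transcribed strand, was found in 4.04% of 27305 RefSeq promoters, in 5.30% of 10882 coding genes tested and in 43 (67.2%) of 64 ribosomal protein genes. The median shift of the ribosomal protein genes with this start was -0.81 (12 of 43 called lower) and of those without it -0.87 (8 of 21). For 534 other genes with this start it was -0.06, with 26 called higher and 38 lower, and for the 10284 remaining genes 0.02. RefSeq starts need not be the ones used in U2OS cells.

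Some mRNAs of other abundant cytosolic and mitochondrial proteins were called towards the soluble fraction as well. The shares over all genes were 4.99% called lower and 4.57% higher, and 3.27% and 4.36% without the library that stood apart. Of 31 proteasome subunits 11 were called lower and 0 higher (median -0.95). Without the library that stood apart 6 were called lower, 5 of them the same genes (median -0.82). The subunits were led by PSMD1, a scaffold of the regulatory particle, with ratios of 2.61, 2.5 and 2.94 in Ctrl and 0.886, 1.11 and 0.541 in NaAsO2 lysates. Of 17 glycolytic enzymes 6 were called lower and 0 higher (median -0.79). GAPDH had 1435, 1944 and 1628 CPM in the soluble and 758, 882 and 744 CPM in the insoluble Ctrl libraries, and 2212, 2279 and 2572 and 450.3, 475 and 399 CPM with NaAsO2. Each fraction moved away from the other without overlap (shift -1.34 ± 0.20, adjusted p = 4.83e-05, edgeR), and 17.6% of its exon bases lie in a gene on the opposite strand. Of 77 nuclear-encoded respiratory chain subunits 29 were called lower and 0 higher (median -0.72), and without that library 18, 16 of them the same genes (median -0.78). The 16 subunits of ATP synthase had a median of -1.19 with 10 called, the 10 of complex IV -0.995 with 5, the 37 of complex I -0.63 with 11 and the 14 of complexes II and III -0.44 with 3. Without that library these calls numbered 8, 1, 8 and 1. Mitochondrial ribosomal proteins moved less, with 10 of 76 called lower and 0 higher (median -0.48), 3 of the 10 also without that library. Of 17 tubulins and actins, 4 tubulins were called lower (2 without that library, 1 of them the same gene) and 0 actins, with a median of -0.87 for tubulins and -0.54 for actins. ACTB, the cytoplasmic actin, did not reach the limit of 1 (-0.70, adjusted p = 0.034, edgeR), and tubulin and actin genes share reads with close copies. Peroxiredoxins and thioredoxins had a median of -0.19 (2 of 14 called lower, 0 without that library).

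**Figure D2:**
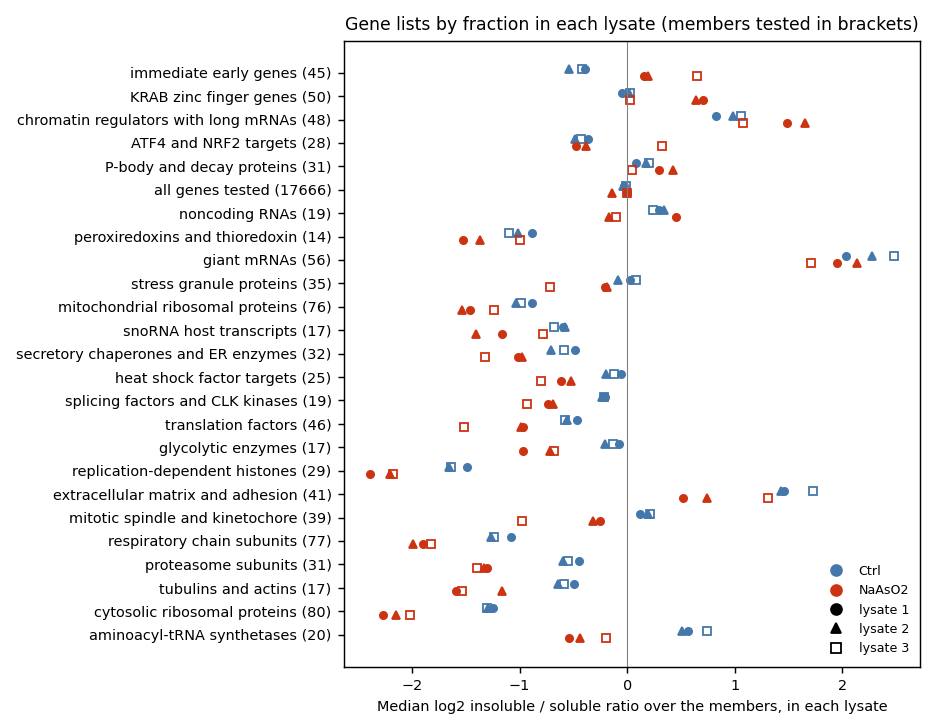
Median log2 insoluble-to-soluble ratio over the tested members of 24 gene lists and over all genes, in each Ctrl (blue) and NaAsO2 (red) lysate, ordered by the difference of the treatment means. Immediate early genes lie to the right with NaAsO2 in all 3 lysates, aminoacyl-tRNA synthetases and ribosomal proteins to the left, and all genes stay close to 0.

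Heat shock genes with a higher level were not among those called for the shift. Of 25 targets of heat shock factor, 4 had a higher mean level and 0 of these were called for the shift, while 6 were called lower and 0 higher for the shift (median -0.49). Without the library that stood apart 3 were called lower, all of them among the 6 (median -0.52). Of all genes, 4.99% were called lower for the shift with all libraries and 3.27% without that library. The stress-induced HSP70 genes HSPA1A and HSPA1B had levels higher by 1.44 and 1.41, ratios of 1.41, 1.34 and 1.63 and 1.73, 1.41 and 1.67 in Ctrl and 0.78, 0.906 and 1.4 and 0.791, 0.874 and 1.6 in NaAsO2 lysates, and shifts of -0.49 and -0.54 that did not pass (adjusted p = 0.23 and 0.24, edgeR). Both had ratios below all Ctrl ratios in NaAsO2 lysates 1 and 2. In lysate 3, which holds the library that stood apart, they lay among the Ctrl ratios. Under the 24 alternatives their shifts ranged from -0.83 to -0.20 and from -0.94 to -0.22, and neither was called. These genes are near-identical copies. DNAJB1, their cochaperone, had a level higher by 1.02 and a shift of 0.22 that did not pass (adjusted p = 0.46, edgeR). The chaperone mRNAs that shifted, STIP1 (-1.72), HSPA8 (-1.62), HSP90AB1 (-1.43) and HSPA4 (-1.15), had level changes of 0.11, -0.00028, 0.11 and -0.16, none of which was called. HSPA4 was not called without the library that stood apart (-0.99), nor was HSPH1, an HSP110, in either fit (-0.85 and -0.72).

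**Figure D3:**
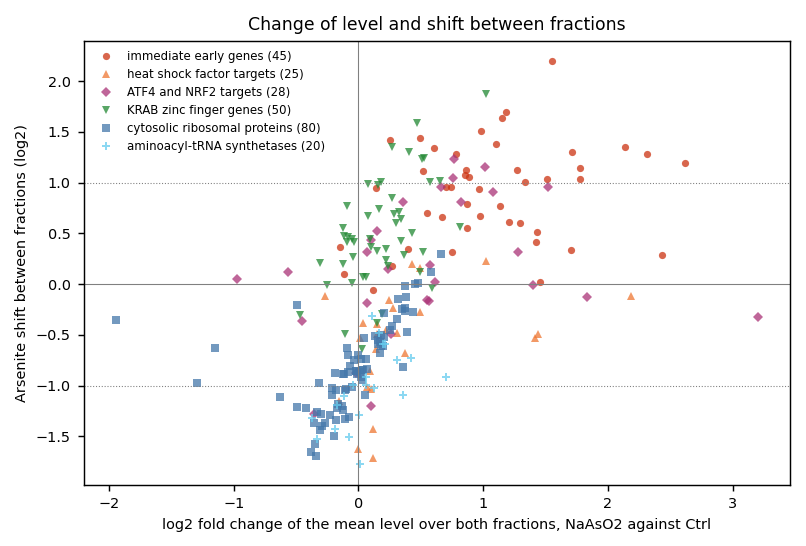
Log2 fold change of the mean level over both fractions (x axis) and arsenite shift (y axis) of the tested members of 6 gene lists, with dotted lines at shifts of -1 and 1. Immediate early genes fill the upper right, KRAB zinc finger genes lie above 0 close to an unchanged level, and ribosomal proteins and aminoacyl-tRNA synthetases lie below 0.

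Some messenger RNAs translated at the endoplasmic reticulum (ER) were called towards the soluble fraction. The shares over all genes were 4.99% called lower and 4.57% higher, and 3.27% and 4.36% without the library that stood apart. Of 32 secretory chaperones and ER enzymes, 8 were called lower and 0 higher (median -0.57), 5 of them also without the library that stood apart, with a median log2 fold change of -0.77 in the insoluble and -0.23 in the soluble fraction. HSP90B1, the ER member of the HSP90 family, had ratios of 1.3, 1.2 and 1.5 in Ctrl and 0.509, 0.57 and 0.399 in NaAsO2 lysates. Its log2 fold change was -1.65 in the insoluble and -0.22 in the soluble fraction. PDIA3, a disulfide isomerase (-1.49 and -0.23), and STT3A, a catalytic subunit of oligosaccharyltransferase (-2.33 and -0.15), were likewise called in the insoluble fraction and not in the soluble one. Of 41 mRNAs of the extracellular matrix and adhesion, 6 were called lower and 0 higher (median -0.47), and 8 and 1 without that library, 4 of the 8 the same genes. FN1, fibronectin, held 881, 883 and 792 CPM in the soluble and 4128, 4210.4 and 5108 CPM in the insoluble Ctrl libraries, and 1732, 1625 and 1541 and 1898, 2543 and 1394 CPM with NaAsO2. It was over 4 times higher in the pellet in each Ctrl lysate, and its NaAsO2 ratios were 1.1, 1.56 and 0.905 (shift -2.14 ± 0.23, adjusted p = 2.32e-06, edgeR). HSPG2, the proteoglycan perlecan, and A2M, a protease inhibitor, had shifts of -1.85 and -2.04.

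The longest mRNAs stayed in the pellet. The median log2 ratio of 56 giant mRNAs was between 2.04 and 2.48 in Ctrl lysates and 1.95, 2.14 and 1.71 in NaAsO2 lysates. 1 was called higher (MAP1A, a microtubule-associated protein, 1.32) and 4 lower, among them TPR, of the nuclear pore basket (-1.55), and LRP1, an endocytic receptor (-1.23), and the median shift was -0.21, or 0.01 without the library that stood apart. With all libraries these calls were 1.79% higher and 7.14% lower, against 4.57% and 4.99% of all genes. AHNAK, a giant scaffold protein, had ratios of 10.8, 15.6 and 18.1 in Ctrl and 14.3, 16.1 and 23.1 in NaAsO2 lysates, and a shift of 0.27 ± 0.24 that did not pass (adjusted p = 0.45, edgeR). DYNC1H1, the heavy chain of cytoplasmic dynein, went from 8.69, 10.1 and 12.4 to 4.92, 6.54 and 5.13, below the limit of 1 (-0.91, adjusted p = 0.0024, edgeR).

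Of 19 noncoding RNAs tested, 1 was called higher (5.26%, NORAD) and 2 lower (10.5%), against 4.57% and 4.99% of all genes. RMRP, the RNA of a ribonuclease that processes ribosomal RNA, and DANCR were those called lower (-1.62 and -1.1, the latter not without the library that stood apart). MALAT1, a nuclear RNA, had log2 fold changes of -1.64 in the insoluble fraction, which was called, and -0.82 in the soluble one, which was below the limit of 1, and a shift of -0.81 (adjusted p = 0.041, edgeR), and 83.7% of its exon bases lie in genes that overlap it. NEAT1, the RNA of paraspeckles, had a shift of -0.36 (adjusted p = 0.35, edgeR). RN7SL1 turned on 1 library, with 4127 and 8025 CPM in 2 NaAsO2 insoluble libraries and 70837 CPM in the third, against 8292, 7839.6 and 6841 CPM in Ctrl. Its shift was 1.16 ± 0.83 (adjusted p = 0.33, edgeR) with that library and -0.93 without it. RN7SK and RN7SL2 had 0 counts in all libraries of the exon table. snoRNA host transcripts, which are spliced to release small nucleolar RNAs, had 6 of 17 called lower and 0 higher (median -0.44), among them GAS5 (-1.12), TAF1D (-1.29) and SNHG1 (-1.08). Without the library that stood apart 4 were called lower, 3 of them among the 6 (median -0.69), with GAS5 (-1.14) and TAF1D (-1.15) called and SNHG1 not (-0.69).

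Other lists had calls towards the soluble fraction alone when all libraries were used. Of 29 replication-dependent histone genes, whose mRNAs end in a stem-loop in place of a poly(A) tail, 4 were called lower and 0 higher (median -0.71), and 6 without the library that stood apart, 2 of them among the 4. Of 39 mitotic spindle and kinetochore genes 10 were called lower and 0 higher (median -0.76), and 4 without the library that stood apart, all of them among the 10 (median -0.49). BUB1, a spindle checkpoint kinase, had ratios of 1.84, 1.98 and 2.19 in Ctrl and 0.893, 0.926 and 0.464 in NaAsO2 lysates, the lowest in lysate 3. Splicing factors and CLK kinases had 1 of 19 called lower (SRSF1, -1.05, -0.67 without that library) and a median of -0.64, and 0 lower and 1 higher without it. The lower call was 5.26% of the list, against 4.99% of all genes.

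Transcript features were compared with the shift over 13439 coding genes, with the Ensembl canonical transcript of GENCODE release 44. Genes are not independent replicates, and the values are descriptions. In Ctrl lysates the insoluble-to-soluble ratio followed the length of the coding sequence (Spearman's correlation 0.72), and with NaAsO2 less so (0.54). The shift itself had little relation to coding length (0.03) and more to the length of the 3′UTR (0.24) and of the 5′UTR (0.26). With genes in 5 classes of equal size, from the shortest to the longest 3′UTRs, the median shift was -0.26, -0.06, 0.04, 0.14 and 0.23, the genes called higher numbered 24, 77, 140, 183 and 254, and those called lower 290, 167, 108, 60 and 62. Without the library that stood apart the correlation for the 3′UTR was 0.41, and the median ran from -0.40 in the shortest to 0.36 in the longest class.

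The relation to GC content rested on that 1 library. Spearman's correlation between shift and GC content was 0.34 with all libraries, 0.44 or 0.42 when NaAsO2 insoluble replicate 1 or 2 was left out, and 0.01 without replicate 3. The difference of the median log2 ratio between the highest and the lowest of 5 classes of GC content was 0.14, 0.11 and 0.10 in Ctrl lysates and 0.02, 0.26 and 1.83 in NaAsO2 lysates. For the longest against the shortest class of 3′UTRs it was 0.19, 0.25 and 0.34 in Ctrl and 0.87, 0.90 and 0.31 in NaAsO2 lysates. With each library's trend with GC content removed, the correlation for the 3′UTR was 0.43, and 728 genes were called higher and 860 lower.

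**Figure D4:**
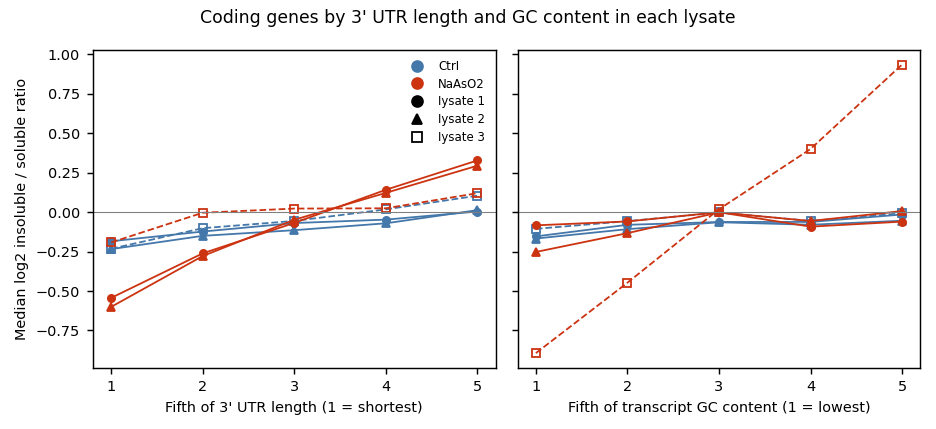
Median log2 insoluble-to-soluble ratio of coding genes by class (5 of equal size) of 3′UTR length (left) and of GC content (right) in each Ctrl (blue) and NaAsO2 (red) lysate, lysate 3 dashed with open squares. NaAsO2 lysates 1 and 2 climb with 3′UTR length by 0.87 and 0.90, and lysate 3 climbs with GC content by 1.83, while the other lysates are nearly flat there.

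The relation to 3′UTR length was present at both ends of GC content. Within the class of lowest GC content, the median shift without the library that stood apart was -0.54 for the shortest (190 genes) and 0.22 for the longest 3′UTRs (990 genes), and within that of highest GC content it was -0.26 (981 genes) and 0.57 (102 genes). Of the coding genes, 233 genes with at least 4 copies of TGTANATA in the 3′UTR had a median of 0.24 (0.44 without that library), with 23 called higher and 3 lower, and the 9401 genes with 0 copies had -0.02 (-0.08). Within the 5 classes of 3′UTR length, from the shortest to the longest, the median without that library was -0.24, 0.01, 0.14, 0.28 and 0.39 for genes with the motif and -0.41, -0.14, 0.01, 0.15 and 0.32 for those without it. With all libraries these were -0.23, -0.09, 0.06, 0.14 and 0.22 against -0.26, -0.06, 0.03, 0.14 and 0.27, and the genes with the motif lay lower in 2 classes, the second and the longest. For ATTTA the medians without that library were -0.36, -0.11, 0.05, 0.20 and 0.35 for genes with it and -0.42, -0.14, 0.03, 0.25 and 0.55 for those without it. With all libraries they were -0.31, -0.14, -0.01, 0.11 and 0.23 against -0.23, 0.05, 0.19, 0.51 and 0.59. The class of longest 3′UTRs held 2651 genes with ATTTA and only 37 without it. Both motifs were searched on the transcript's own strand, overlapping copies included. The 2806 lncRNAs had a median of -0.19, with 79 called higher (2.82%) and 135 lower (4.81%), against 4.57% and 4.99% of all genes.

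Intron counts of the same libraries gave a second reading for 17406 genes, of which 238 (1.37%) were called higher and 31 (0.178%) lower. Leaving out 1 library moved these counts between 11 and 1143 and between 1 and 522, so they depended on single libraries. Of the 807 genes, 584 had introns tested, with a median intron shift of 0.42 and 74.7% positive, against 53.9% of all genes tested in both. Of the 882 genes, 698 had introns tested, with a median of -0.33 and 71.3% negative, against 46.1% of all. Intron reads come from the same libraries and are no independent samples.

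Back-splice junctions of 394 circRNAs were read in all libraries, with 131 to 1454 counts each. The log2 ratio of insoluble to soluble circRNA content, the back-splice share of back-splice plus linear counts, was -1.35, -1.82 and -1.45 in Ctrl lysates (mean -1.54 ± 0.25 SD, n = 3) and -1.52, -1.39 and -2.78 in NaAsO2 lysates (mean -1.90 ± 0.77 SD, n = 3). CircRNAs were thus lower in the insoluble fraction of each lysate, and the treatments overlapped. The shift of -0.36 did not pass an exact two-sided permutation test (p = 0.6, the smallest possible being 0.1 with n = 3), and it was 0.086 without lysate 3 (p = 1, exact, the smallest possible being 0.2). Of 290 host genes of these circRNAs tested on exon counts, 20 were called higher and 15 lower, against 4.57% and 4.99% of all genes, with a median of 0.06 (0.23 without the library that stood apart).

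In cells given RK-33, NaAsO2 moved fewer genes past the thresholds. The same contrast on the other 12 libraries, of Combo against RK-33, called 40 genes (0.226%), 20 in each direction. 17 of them were called the same way without RK-33, which is 42.5% of the 40 and 1.01% of the 1689. The median shift with RK-33 was 0.38 for the 807 genes and -0.30 for the 882, against 0.01 for all genes, and 89.6% and 86.1% had the same sign as without RK-33. Of all genes, 51% were positive with RK-33. Across genes Spearman's correlation between the shifts was 0.51. The difference of both shifts passed for 341 genes (1.93%), and 97 of the 807 and 166 of the 882 were among them, each against the direction of its shift without RK-33. The 1689 genes were chosen on one term of this difference, which favours that direction. With the lysate as a block, 9 genes were called for the shift with RK-33 and 44 for the difference, and without the library that stood apart 265 and 761. None of the RK-33 or Combo libraries was left out in that fit, and the cause of the change from 40 to 265 was not tested.

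**Figure D5:**
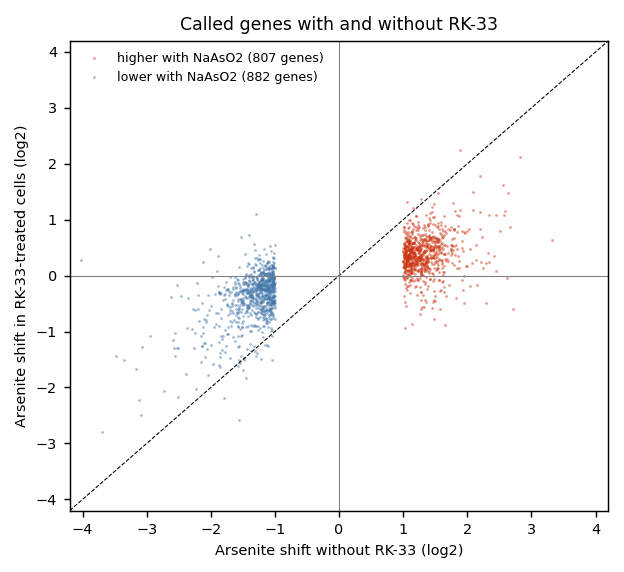
Arsenite shift without RK-33 (x axis) and in RK-33-treated cells (y axis) of the 807 genes called towards the insoluble (red) and the 882 called towards the soluble fraction (blue), on the log2 scale, with the line of equality dashed. Most genes lie on the same side of 0 in both and nearer to 0 with RK-33.

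Single genes differed in how much of the shift remained. NORAD had a shift of 1.14 with RK-33 (difference -1.05 ± 0.21, adjusted p = 0.0099, edgeR), LRRC58 one of 1.17 (difference -0.91, below the limit of 1, adjusted p = 0.027, edgeR) and IER3 one of 1.79, whose difference of -0.41 did not pass (adjusted p = 0.65, edgeR). DDX1 had -0.51 (difference 1.24 ± 0.21, adjusted p = 0.0053, edgeR), ZCCHC14 0.46 (difference -1.32, adjusted p = 0.001, edgeR) and EGR1 -0.30 (difference -1.58, adjusted p = 0.011, edgeR). The median of the ribosomal protein list was 0.07 and that of the aminoacyl-tRNA synthetases -0.26. The starting points differed too. RK-33 lysates without NaAsO2 had median log2 ratios of -1.41, -1.89 and -1.83 for ribosomal proteins, below those of Ctrl, and the class of longest 3′UTRs lay above the shortest by 0.62, 0.60 and 0.94 in RK-33 and 0.80, 0.84 and 0.57 in Combo lysates. The difference between the highest and the lowest class of GC content was -0.06, 0.06 and -0.49 in RK-33 and -0.22, -0.35 and 0.69 in Combo lysates. Combo insoluble replicate 3 also had more RN7SL1 (1.23%) than replicates 1 and 2 (0.746% and 0.521%). Its mean correlation with its group was 0.980, against 0.988 and 0.986.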

How the data were processed

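24 libraries of cytoplasmic RNA were sequenced, 3 for each treatment and fraction. The authors aligned reads with STAR 2.7.2b to GRCh38 (p13), and deposited raw counts of exons, introns and circRNA back-splice and linear junctions, counted without strand by featureCounts of Subread. 12 libraries form the contrast.

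Exon counts were fitted in edgeR 4.0.16 (R 4.3.3) with TMM factors, a floor of 1 CPM on the mean of a gene, all 24 libraries in 8 groups and the quasi-likelihood test, and the contrast was the change with NaAsO2 of insoluble against soluble. A call needed p below 0.05 after Benjamini-Hochberg adjustment and a shift of 1 or more on the log2 scale in either direction. Lysate ratios used a pseudocount of 0.5 CPM. The steps were tested on simulated data. Transcript features came from GENCODE release 44 and starts from RefSeq, both on GRCh38. Mitochondrial genes (37) had 0 counts. Of 127 named genes, 14 have over 20% of their exon bases in another gene's exons, where counts without strand mix both.

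The study compared fractions within a treatment by a paired t-test. Fractions with the same replicate number were taken here as 1 lysate, which the labels do not state. Their deviations correlated by 0.098 to 0.34 in Ctrl, 0.0027 to 0.12 in NaAsO2, -0.12 to 0.063 in RK-33 and -0.31 to -0.062 in Combo lysates. Fractions with different numbers correlated by up to 0.065, 0.11, 0.14 and 0.31. They exceeded the same number for NaAsO2 lysates 1 and 2, RK-33 lysates 1 and 2 and every Combo lysate, so the pairing is uncertain there. The lysate block was an alternative, as were other scalings, filters, tools (DESeq2 1.42.0) and leaving out each library.

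Genes named were, in each direction, the 10 with the smallest adjusted p and the 5 with the largest shift among those called with and without NaAsO2 insoluble replicate 3 and a mean of at least 10 CPM, a fixed set, up to 4 called members of each of 24 lists and up to 2 against their median, and up to 5 by the difference with RK-33. Some genes that this rule names are not reported here. The members, lists and tests were chosen with earlier results of these data known. Figures were drawn with matplotlib 3.10.9.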

Additional observations from a re-analysis of the deposited data

Results flagged for a closer look

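The arsenite shift differed between cells with and without RK-33 by a test of the difference itself for 341 genes, 220 with a more positive and 121 with a more negative shift with RK-33 (edgeR quasi-likelihood test, Benjamini-Hochberg). Of 124 named genes counted here, 47 were among them, with adjusted p from 0.00104 to 0.0495. Over all genes tested the share was 1.93%. Many named genes were chosen by their shift without RK-33, which is a term of this difference, and some by the difference itself. That choice favours such calls and a difference against the direction of the shift. The 47 and their directions are therefore a description and no further test of an effect of RK-33. With the lysate as a block, 44 genes passed in all.

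In 12 of the 47 the shift was more negative with RK-33, and the differences on the log2 scale were TP53INP1 (-1.85), C14orf132 (-1.71), EGR1 (-1.58), KMT2D (-1.4), ZCCHC14 (-1.32), CMTM4 (-1.23), ZNF791 (-1.15), IRS1 (-1.09), TET3 (-1.09), NORAD (-1.05), NSD1 (-1.04) and ZNF699 (-1.02). EGR1 is the one whose shift was negative with RK-33 (-0.30), and C14orf132, ZNF791 and KMT2D had 0.13, 0.09 and 0.05.

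In the other 35 the shift was more positive with RK-33, with differences of A2M (1.7), RPS4X (1.67), FN1 (1.66), H1-1 (1.6), EEF2 (1.6), HSPG2 (1.53), RRM1 (1.52), COPG1 (1.51), RPL6 (1.51), GAPDH (1.49), HSPA8 (1.47), TARS1 (1.45), TKT (1.44), STIP1 (1.42), DHX9 (1.39), UFD1 (1.38), CCNB1 (1.36), TXN (1.34), HSP90B1 (1.3), RMRP (1.28), KIF20A (1.27), PSMC1 (1.24), RARS1 (1.24), DDX1 (1.24), HSP90AB1 (1.22), ATP5PB (1.21), NDC80 (1.2), RPN1 (1.19), TUBB2B (1.17), BUB1 (1.16), TPR (1.13), NID1 (1.06), PDIA3 (1.05), TUBA1A (1.04) and PRDX6 (1.04). The shifts with RK-33 of H1-1, a linker histone, CCNB1, a mitotic cyclin, TXN, GAPDH and KIF20A, a mitotic kinesin, were 0.52, 0.25, 0.22, 0.15 and 0.11.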

How the results depend on the processing

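Of 108 named genes called, 63 kept their call under all 24 alternatives, other fold limits aside, and 0 reversed. 25 lost it on exon plus intron counts, 24 each without NaAsO2 insoluble replicate 3, without NaAsO2 soluble replicate 3 and in the fit of only the 12 libraries, 23 without NaAsO2 lysate 3 and 1 with the replicate block. The calls in either direction numbered 1689, and 1901 by the likelihood ratio test and 1780 by DESeq2 (1008 higher, 772 lower). Without a fold limit they were 3943 (1935 higher, 2008 lower), and with a limit of 2 on the log2 scale 88 (33 and 55). The 882 lower calls became 514 with library size alone, 464 with a mean of at least 10 CPM and 387 in the fit of only the 12 libraries, and the 807 higher calls became 1293 with no filter. The causes were not tested. Leaving out 1 library gave 1348 to 2897 calls, 656 to 1984 higher and 450 to 965 lower, with 2897 (1984 higher) without NaAsO2 insoluble replicate 1, 1223 higher without insoluble replicate 2, 577 lower without insoluble replicate 3, and 485 and 450 lower without soluble replicates 1 and 3. The replicate block on the lysate gave 1518 calls (662 higher, 856 lower). Of the list counts it moved those of KRAB zinc finger genes (6 to 3 higher) and of ATF4 and NRF2 targets (2 to 1 lower) by over 1.5 times. The shift with RK-33 was called for 40 genes, 14 with library size alone, 9 with the block, 235 without NaAsO2 lysate 3 and 16 to 265 without 1 library. The difference was called for 341, 44 with the block, 674 without NaAsO2 lysate 3 and 168 to 761 without 1 library. The intron calls were 359 higher with a mean of at least 5 CPM, and 11 to 1143 higher and 1 to 522 lower without 1 library. The circRNA shift ranged from -0.61 to 0.086 without 1 lysate or library. Leaving out lysate 3 or a library other than NaAsO2 insoluble replicate 3 for the RK-33, intron and circRNA values was chosen after seeing the data.

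Besides the circRNA shift, reversals among the named genes were found only in genes that were not called. G3BP1 was at 0.000873 with GC correction. RN7SL1 (-0.93 to 1.78 without 1 library) was at -0.0182 with the block, -1.01 without NaAsO2 lysate 3 and -0.93 without insoluble replicate 3. DDX3X (-0.52 to 0.057) was at 0.057 without that replicate, and RPLP0 (-0.35 to 0.0095) at 0.0095 without insoluble replicate 1. HMOX1 (-0.23 to 0.0603) was at 0.0172 in the fit of only the 12 libraries, 0.194 on exon plus intron counts, 0.0603 without Ctrl insoluble replicate 3 and 0.0172 without NaAsO2 insoluble replicate 1. Of 168 list medians under alternatives, 9 moved by more than the spread between lysates, and 1 changed sign, that of giant mRNAs. In the fit of only the 12 libraries the lower calls were 14 for the respiratory chain, 3 for the proteasome, 1 for glycolytic enzymes, 2 for snoRNA hosts, 4 for ER enzymes and 0 for tubulins and actins. Depth limits the circRNA values, with 131 to 1454 back-splice counts per library.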
